A study of Mus musculus with 11 samples.

Results

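The genes described here are 36 genes of the heart muscle sarcomere and of its anchor, the Z-disc, read by gene symbol from a table of 54532 genes counted in mouse hearts. All 36 symbols were found, each with an Ensembl identifier, and all 36 passed the filter on low counts that left 14862 genes for testing. They fall into 6 roles: the thick filament and myosin-associated proteins (6 genes), the thin filament (5), titin and the M-band (5), the Z-disc (11), desmin, filamin C and the Xin repeat proteins (4), and a myosin kinase with muscle chaperones and ubiquitin ligases (5). The rule names genes by symbol and uses no measured value, but it was written with earlier results of these data known.

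The hearts came from C57BL/6 mice with a time label of 26 weeks. Chow mice gave 3 libraries and mice labelled HFD+STZ gave 4. Another 4 libraries, called METTL3 below, carried the HFD+STZ label together with AAV METTL3, so the HFD+STZ treatment is shared by both of those groups. None of these letters is spelled out in the labels; in mouse work a high-fat diet, the beta-cell toxin streptozotocin and an adeno-associated virus are their common readings. They also name neither a promoter or dose for the virus nor a control virus for the HFD+STZ mice. Nothing says whether a library is 1 mouse, and the spread that p-values rest on is that between libraries, part of which may be technical.

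The sarcomere is the contractile unit of striated muscle, in which thick filaments of myosin pull on thin filaments of actin when calcium binds troponin on the thin filament. Thin filaments are cross-linked at the Z-disc by alpha-actinin, thick filaments at the M-band by myomesins, and titin runs from one to the other as a spring. In the mouse ventricle the fast myosin heavy chain gene Myh6 predominates over the slow gene Myh7, and a shift towards Myh7 and skeletal actin is a known feature of stressed hearts. Serum response factor, which binds the CArG box, and MEF2 proteins, which bind an AT-rich box, are known regulators of muscle genes.

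Total counts ran from 13900531 to 16952639 per library. Chow replicate 3 stood apart from the others. Its mitochondrial share of counts was 9.28% against 25.3% to 45.5% elsewhere, 15734 genes were detected in it against 17317 to 20769 in the other libraries, and the 36 genes took 11.5% of its nuclear counts against 8.18% to 9.88%. The mitochondrial share also differed by group without overlap, at 9.28% to 27.4% on chow, 28.6% to 32.5% in HFD+STZ and 37.7% to 45.5% in METTL3, so it moved with every comparison below. With mitochondrial genes left out of the edgeR fit 0 of the 36 members passed at an adjusted p of 0.05 in each comparison (0.234%, 0% and 2.69% of all genes for HFD+STZ against chow, METTL3 against HFD+STZ and METTL3 against chow). Any other part of this share in the members' differences was not tested. Mettl3 itself was at 6.11 ± 2.67 CPM (counts scaled to library size, TMM; SD, n = 3) on chow, 6.35 ± 1.58 CPM (SD, n = 4) in HFD+STZ and 8.39 ± 2.19 CPM (SD, n = 4) in the libraries labelled METTL3. The log2 fold change of METTL3 over HFD+STZ was 0.40 (SE 0.32, edgeR adjusted p = 0.759) with a 95% interval from -0.30 to 1.09, so no difference in Mettl3 was detectable between those groups. The sample codes in the labels form a lower run, 25 to 33, which holds METTL3 replicates 1 to 3 and HFD+STZ replicates 2 to 4, and an upper run, 78 to 98, which holds every chow library, HFD+STZ replicate 1 and METTL3 replicate 4. What the codes stand for is not given.

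Promoter sequence was looked at first, as a property that the choice of genes did not use and that members might share. Of the 36 genes, 31 had at least 1 promoter in a RefSeq table of the GRCm38.p6 build (mm10), with 44 windows of 250 bases before a start site; Trim55, Myom2, Tcap, Nexn and Xirp1 were not matched. A CArG box, searched on both strands, was in 18.2% of the member windows and in 1.47% of all 32851 windows of the same length. Of the 44 member windows 17 lay wholly outside the deposited gene bounds, and of the 8 with a CArG box 0 did. A MEF2 box was in 18.2% of member windows and 2.92% of all windows. By gene, 6 of 31 had a CArG box (Actc1, Fhl2, Ldb3, Myl3, Myom1 and Nebl), 7 had a MEF2 box (Fhl2, Mybpc3, Myom3, Myoz2, Synpo2l, Ttn and Xirp2), and 12 had either, with Fhl2 holding both. The letters TATAAA were in 9.09% of member windows against 12.4% of all, CATTCC, the core read by TEAD factors, in 25% against 12.6%, and CANNTG, the E-box, in 77.3% against 66.2%. Windows of a gene with several starts can overlap, a match is a description and not a bound site, and motifs were counted with no regard to overlap between them. The 7 stretches holding a CArG box are shown because this box differed most from its share in all windows, 30 bases each, 5′ to 3′ on the gene's strand, with the box in capitals.
Fhl2 (chr1:43196838-43196867, - strand): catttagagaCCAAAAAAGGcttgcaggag
Fhl2 (chr1:43163973-43164002, - strand): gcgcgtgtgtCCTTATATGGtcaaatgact
Nebl (chr2:17462999-17463028, - strand): gctcccatctCCTAAATTGGctggaaatgc
Actc1 (chr2:114052903-114052932, - strand): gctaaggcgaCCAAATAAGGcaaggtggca
Myl3 (chr9:110763583-110763612, + strand): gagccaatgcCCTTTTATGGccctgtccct
Ldb3 (chr14:34588697-34588726, - strand): gggttacagtCCATTTATGGgcgcagcaag
Myom1 (chr17:71019448-71019477, + strand): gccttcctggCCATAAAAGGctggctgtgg

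The Fhl2 stretches belong to 2 different start sites, and the 7 boxes differ in the bases between their outer CC and GG pairs. Whole windows, all outside the deposited gene bounds, are shown for 4 genes with a MEF2 box, from different roles, with the box in capitals. These are Ttn, the titin spring, Mybpc3, the myosin-binding protein of the thick filament, Synpo2l, a Z-disc protein, and Xirp2, an actin-binding Xin repeat protein.
Ttn (chr2:76982548-76982797, - strand): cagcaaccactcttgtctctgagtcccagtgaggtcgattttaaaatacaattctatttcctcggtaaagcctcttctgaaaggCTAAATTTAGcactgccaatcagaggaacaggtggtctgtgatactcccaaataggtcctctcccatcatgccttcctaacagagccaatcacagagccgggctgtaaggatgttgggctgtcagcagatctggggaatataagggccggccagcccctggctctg
Mybpc3 (chr2:91117894-91118143, + strand): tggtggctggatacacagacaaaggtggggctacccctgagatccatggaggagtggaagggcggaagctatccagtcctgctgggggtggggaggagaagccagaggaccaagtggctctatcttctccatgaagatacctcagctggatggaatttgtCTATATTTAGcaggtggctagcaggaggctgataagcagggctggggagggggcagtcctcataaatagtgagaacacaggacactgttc
Synpo2l (chr14:20668355-20668604, - strand): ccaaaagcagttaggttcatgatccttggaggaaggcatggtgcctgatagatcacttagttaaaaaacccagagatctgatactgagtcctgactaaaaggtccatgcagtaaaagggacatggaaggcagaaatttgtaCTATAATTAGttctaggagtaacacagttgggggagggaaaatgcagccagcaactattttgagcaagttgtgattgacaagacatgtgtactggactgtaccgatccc
Xirp2 (chr2:67445752-67446001, + strand): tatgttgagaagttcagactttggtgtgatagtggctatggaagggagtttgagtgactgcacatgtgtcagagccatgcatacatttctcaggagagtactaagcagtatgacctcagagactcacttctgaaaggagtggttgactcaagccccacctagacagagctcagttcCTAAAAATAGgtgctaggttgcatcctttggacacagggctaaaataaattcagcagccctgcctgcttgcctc

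The first base of the MEF2 box lay 166 bases before the start in Ttn, 90 in Mybpc3, 109 in Synpo2l and 74 in Xirp2. The measured values of these 4 genes did not follow one direction: in METTL3 against chow Ttn and Xirp2 had positive log2 fold changes (0.51 and 0.15) and Mybpc3 and Synpo2l negative ones (-0.24 and -0.76).

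The members covered a wide range of levels. Raw counts ran from 19, for Myom3 in 1 library, to 311941, for Myh6 in another, and 15 of the 36 genes averaged over 1000 CPM. Levels of different genes were compared per kilobase of the deposited gene length, as the mean of the 3 group means. Cardiac actin, Actc1, came first at 5615 CPM per kilobase. Myl2 (2124), Tnnc1 (2114), Myl3 (2048), Myh6 (1849), Tnni3 (1710) and Tcap (1296) followed, all parts of the filaments except Tcap, the titin cap of the Z-disc. Myom3, an M-band gene known from skeletal muscle, came last at 0.345, and Pdlim3 (3.51) and Myh7b (4.98) stood near it. Titin, whose deposited length is 116825 bases, had 23.6 CPM per kilobase. The deposited length exceeded the longest annotated transcript for 32 of the 36 genes, so these values order the genes and are not transcript numbers, and the values of single libraries overlapped from Myl2 down to Tcap.

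**Figure D1:**
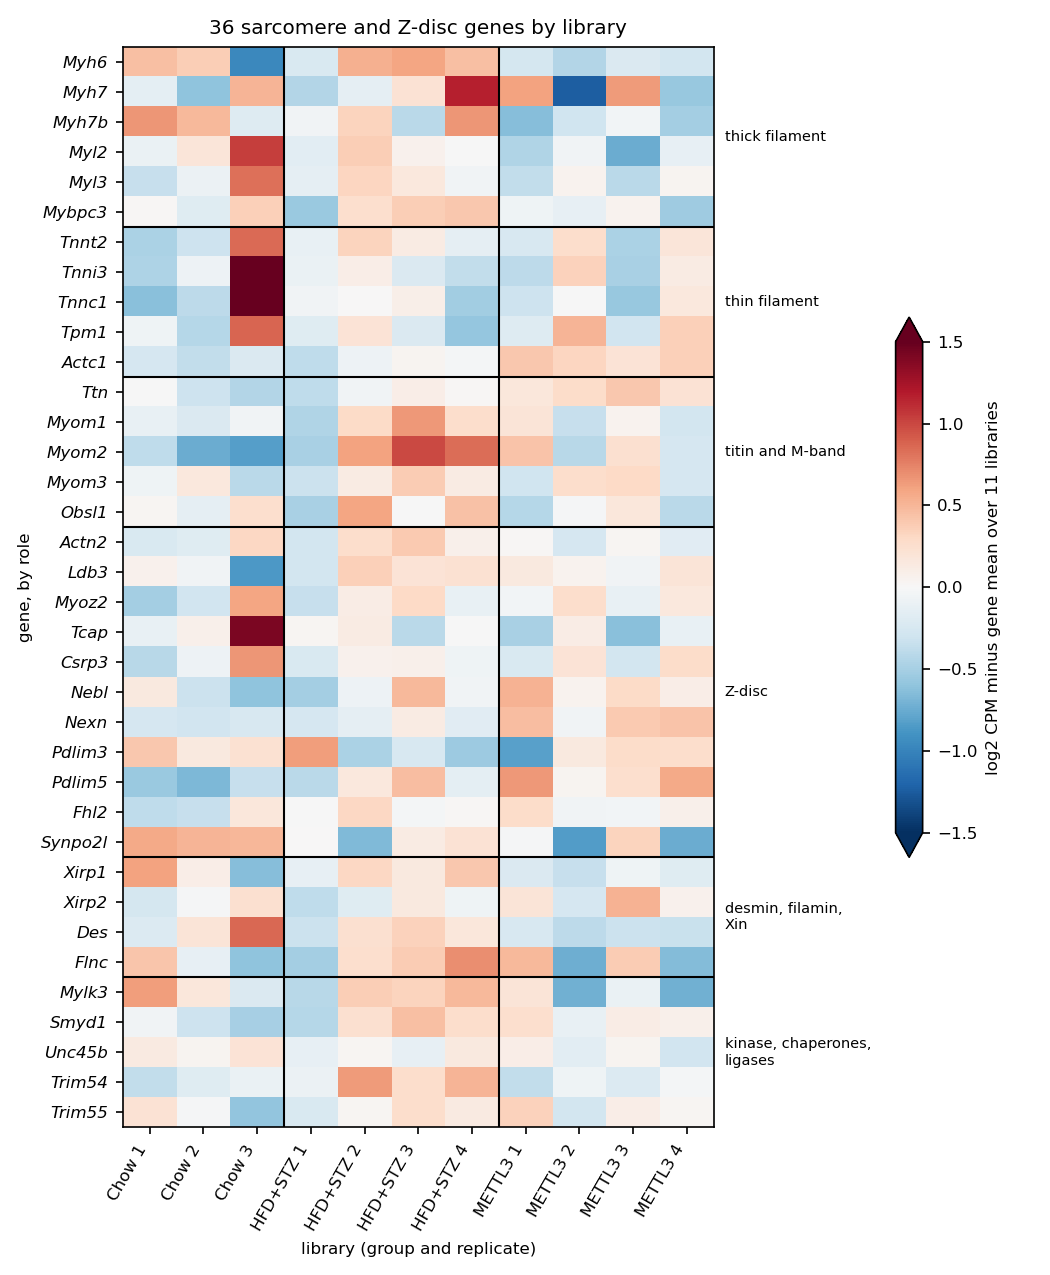
Deviation of log2 CPM from the gene's mean over the 11 libraries for the 36 genes (rows, by role) in the 11 libraries (columns, by group and replicate); the colour scale is in log2 units, and values past its ends take the end colour. Chow replicate 3 is the highest library for 11 genes and the lowest for 9.

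For HFD+STZ against chow, the question is how sarcomere transcripts stand in the diabetic-model heart. Differences ran in both directions: 20 of 36 genes had a log2 fold change above 0 (48.4% of all genes), with a median of 0.11 (all genes -0.02). The M-band gene Myom2 was furthest above 0, at 1.23, and troponin C, Tnnc1, furthest below, at -1.14. None of the 36 passed edgeR's test at an adjusted p of 0.05, where 0.168% of all genes tested did. At an unadjusted p under 0.05 there were 3 members against 12.1% of all genes. All 3 were higher (Myom2, Trim54 and Pdlim5), where 5.58% of all genes were higher and 6.53% lower at that p. The groups did not overlap for 2 members against 10.4% of all genes, with Trim54 higher (5.52% of genes) and Synpo2l lower (4.88%). DESeq2 called 1 member, Myom2 (1.89% of its genes), and limma voom with quality weights called 6 (13.1% of genes). Without chow replicate 3 and HFD+STZ replicate 1, edgeR called 2, Myom2 and Trim54 (3.28% of genes). HFD+STZ replicate 1 was the HFD+STZ library nearest chow for both genes, so leaving it out widens these differences. With the code range as a term in the fit edgeR called 0 (0.00673% of genes), and the median of the 36 genes turned to -0.12.

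For METTL3 against HFD+STZ, the comparison that isolates the virus as far as the labels go, the balance lay below 0. Only 12 of 36 genes were above 0 (49.6% of all genes) and the median was -0.09 (all genes -0.00), with -0.18 without HFD+STZ replicate 1 and -0.06 without HFD+STZ replicate 2. All 6 thick filament genes were below 0, while Actc1, Nexn and Ttn were above it. The thick filament transcripts are at 50.3% to 59.2% GC, and of all genes at 50% GC or more 29.0% were above 0. Without HFD+STZ replicate 4 Myh7 turned to 0.14. The edgeR test called 0 of 36 members and 0 of all genes (percent called 0). At an unadjusted p under 0.05 there were 5 members, with Nexn and Actc1 higher and Trim54, Myh6 and Myh7b lower, against 9.06% of all genes (5.43% higher and 3.63% lower). The groups did not overlap for 2 members, Actc1 and Ttn, both higher in METTL3, against 9.57% of all genes (5.43% higher and 4.14% lower). DESeq2 called 0 members (0.852% of its genes) and voom with quality weights 2, Myh6 and Trim54 (2.66%). Without chow replicate 3 and HFD+STZ replicate 1 edgeR called 4, all lower: Des, Myh6, Myom2 and Trim54 (2.68% of genes). HFD+STZ replicate 1 was the lowest HFD+STZ library for all 4, so leaving it out widens these differences. Its mitochondrial share (30.6%) lay within that of its group. Within the lower code run alone, 3 METTL3 against 3 HFD+STZ libraries, edgeR called 0 (0% of genes). There 11 members were at an unadjusted p under 0.05, all lower, against 17.6% of genes.

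For METTL3 against chow, which changes the HFD+STZ treatment and the virus together, 17 of 36 genes were above 0 (49.2% of all genes) and the median was -0.09 (all genes -0.01). Pdlim5, Actc1 and Nexn were nearest the threshold on the higher side, and Myl2, Des and Synpo2l on the lower side. None of the 36 passed edgeR's test, where 3.2% of all genes did. At an unadjusted p under 0.05 there were 10 members, 4 higher and 6 lower, against 21.7% of all genes (10.6% higher and 11.1% lower). The groups did not overlap for 6 members, 4 higher (Pdlim5, Nexn, Actc1 and Ttn) and 2 lower (Des and Synpo2l), against 18.7% of all genes (10.5% higher and 8.26% lower). DESeq2 called Actc1, Nexn and Pdlim5 (8.03% of its genes) and voom with quality weights called 11 members (20.7% of genes). Without chow replicate 3 and HFD+STZ replicate 1 edgeR called 5 (8.38% of genes): Actc1 and Pdlim5 higher, and Myh6, Myh7b and Xirp1 lower. The 3 comparisons share libraries, so their values are not independent of one another.

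**Figure D2:**
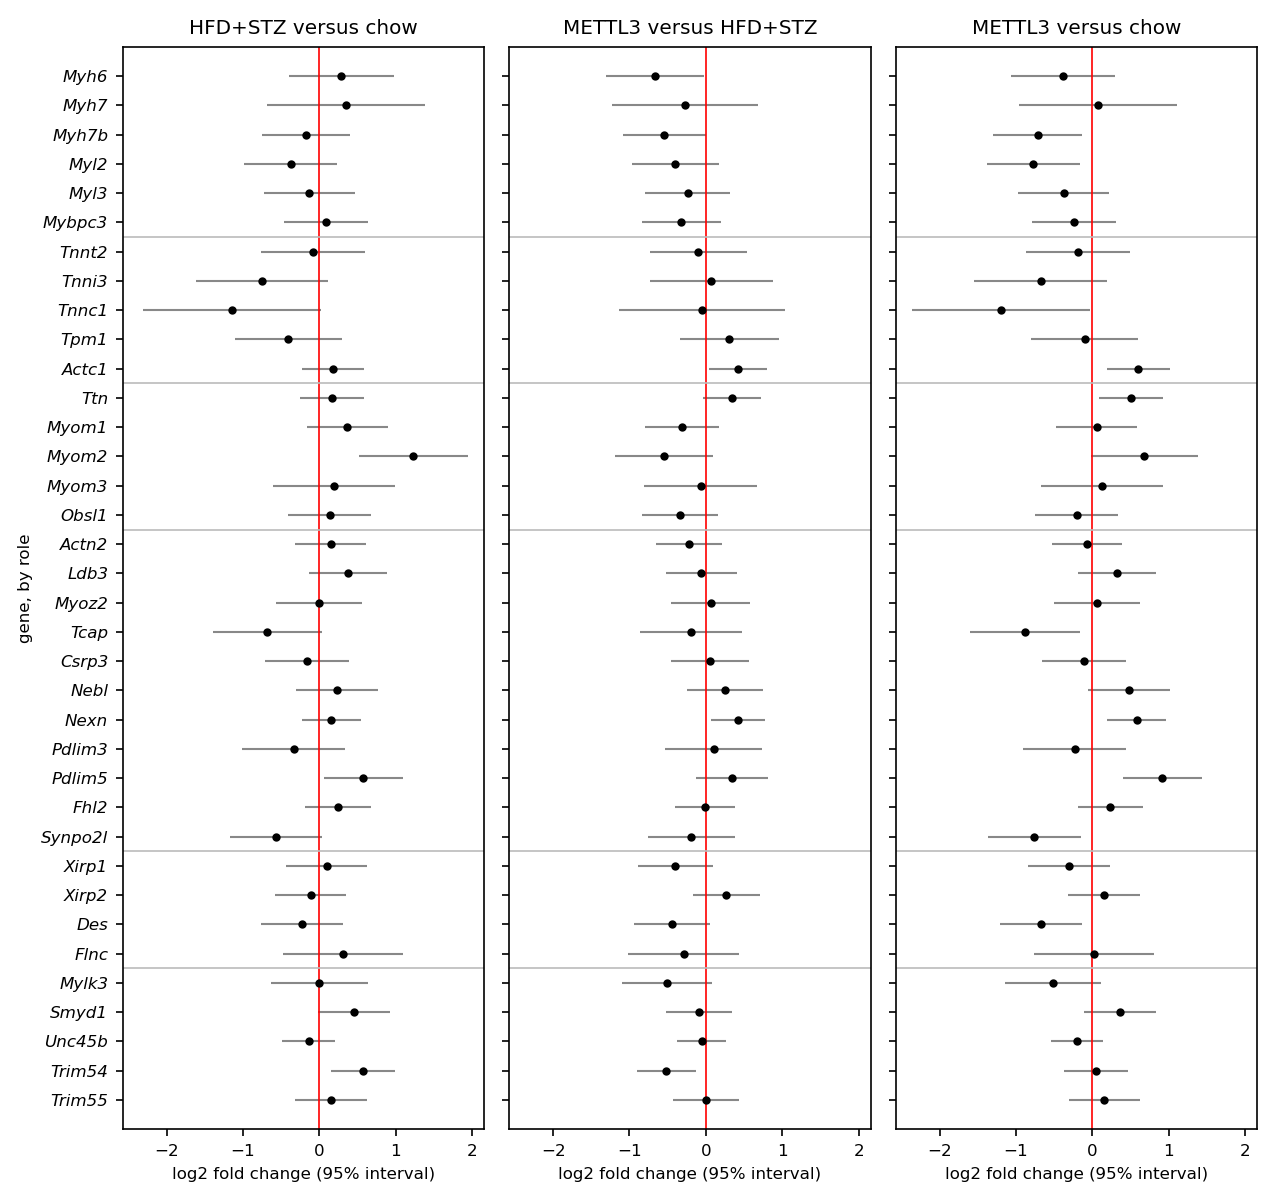
Log2 fold change of each of the 36 genes with its 95% interval from edgeR in the 3 comparisons (panels, shared axis), genes ordered by role. All 6 thick filament genes lie below 0 in METTL3 versus HFD+STZ, where 29.0% of all genes at 50% GC or more, their class, lie above 0. No gene passes an adjusted p of 0.05 in any panel.

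The thick filament genes encode myosin heavy and light chains and myosin-binding protein C. Their summed level was 24824 to 25860.4 CPM on chow, 19154 to 30316 CPM in HFD+STZ and 18738 to 19403 CPM in METTL3. All METTL3 sums lay below all chow sums. HFD+STZ replicate 1, at 19154 CPM, lay within the METTL3 range, so those groups overlapped. In METTL3 against HFD+STZ the 6 log2 fold changes ran from -0.67 to -0.24 (median -0.36, against -0.16 over all genes at 50% GC or more). In chow replicate 3 the light chain genes Myl2 (7903 CPM) and Myl3 (7107 CPM) were above Myh6, so its sum was made up otherwise than in the other libraries. Myh6, the fast alpha heavy chain (chr14:54941921-54966927, minus strand), had the highest mean of the 6 genes in each group. It was at 16165, 15282 and 6021 CPM in chow replicates 1 to 3, at 10029, 16995, 17722 and 16152 CPM in HFD+STZ and at 9821, 8665, 10130.0 and 9749.6 CPM in METTL3. Both low values outside METTL3 were in chow replicate 3 and HFD+STZ replicate 1, so the METTL3 range overlapped both other groups. Its log2 fold change was -0.67 for METTL3 against HFD+STZ (SE 0.30, edgeR adjusted p = 0.534) and 0.29 for HFD+STZ against chow (SE 0.32, edgeR adjusted p = 0.718), the latter -0.04 without chow replicate 3. Over the 26 alternatives the first ran from -0.84 to -0.44 with adjusted p from 0.013 to 0.994, and 3 of them called it. In the lower code run alone it was -0.84 (edgeR adjusted p = 0.0898).

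Myh7, the slow beta heavy chain whose gene lies next to Myh6 (chr14:54970684-54994626, minus strand), spread widely within every group. It was at 484, 353 and 766 CPM on chow, 396, 489.5, 628 and 1209 CPM in HFD+STZ and 821, 229, 835 and 362 CPM in METTL3. METTL3 replicates 1 and 3 were above most HFD+STZ libraries and replicates 2 and 4 below them. The edgeR adjusted p was at least 0.776 in each comparison, with log2 fold changes of 0.35 (SE 0.48), -0.28 (SE 0.44) and 0.07 (SE 0.48) in the order HFD+STZ against chow, METTL3 against HFD+STZ and METTL3 against chow. Myh7b, another heavy chain gene, at a much lower level (chr2:155611212-155634307, plus strand), was at 48.9, 43.3 and 26.9 CPM on chow, 29.7, 39.1, 23.3 and 48.8 CPM in HFD+STZ and 19.8, 25.1, 30.1 and 21.6 CPM in METTL3. Only METTL3 replicate 3 reached into the chow range. Myh7b had a log2 fold change of -0.55 against HFD+STZ (SE 0.25, edgeR adjusted p = 0.548) and -0.72 against chow (SE 0.27, edgeR adjusted p = 0.144), and without chow replicate 3 edgeR called the latter.

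Myl2, the regulatory light chain of the ventricle (chr5:122100951-122113472, plus strand), was at 3585, 4348 and 7903 CPM on chow, 3453, 4973, 4017 and 3827 CPM in HFD+STZ and 2804, 3711, 2287 and 3525 CPM in METTL3. Chow replicate 3 was far above all others, and METTL3 replicate 2 lay above chow replicate 1. Its log2 fold change was -0.78 for METTL3 against chow (SE 0.28, edgeR adjusted p = 0.135) and -0.37 without chow replicate 3. Myl3, the essential light chain, ranged from 3042 to 7107 CPM and Mybpc3 from 1591 to 3097 CPM, with overlapping groups in every comparison.

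**Figure D3:**
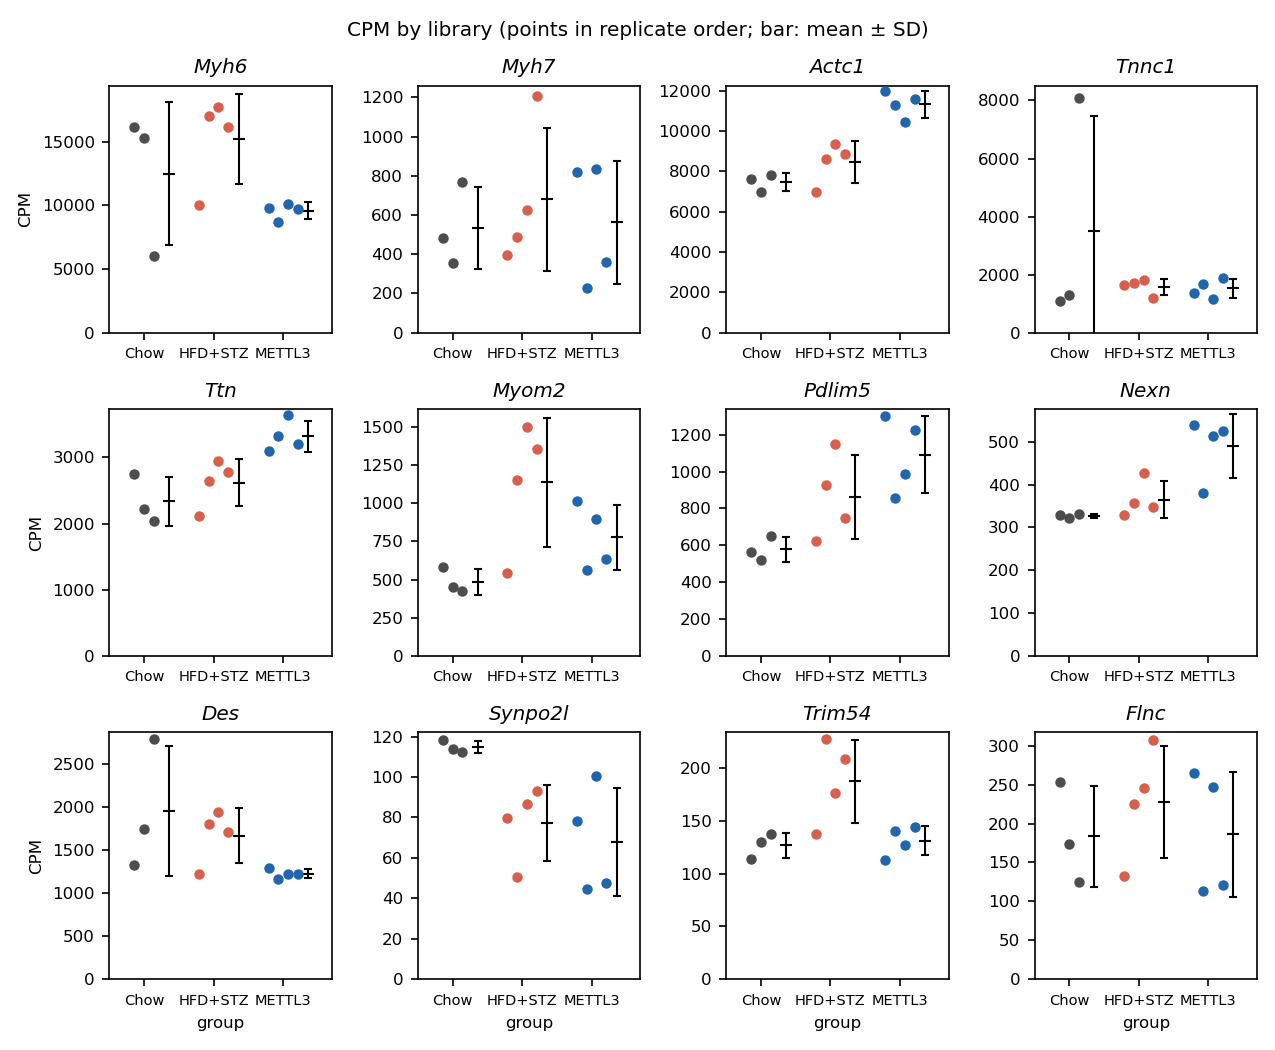
CPM (linear axis from 0) of 12 members in each library by group, with points in replicate order and a bar for the mean ± SD (n = 3, 4 and 4). The lower SD bar of Tnnc1 on chow runs below 0 and is not drawn in full. Chow replicate 3 is far above the other chow libraries for Tnnc1 and far below them for Myh6.

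The thin filament list holds cardiac actin, tropomyosin and the 3 cardiac troponins. Summed, it was at 18154 to 41323 CPM on chow, 19475 to 24430.0 CPM in HFD+STZ and 20719 to 28747 CPM in METTL3, and the top of the chow range was chow replicate 3 alone. Actc1 (chr2:114047282-114053548, minus strand) was at 7619, 6991 and 7817 CPM on chow, 6960.0, 8596, 9363 and 8871 CPM in HFD+STZ and 11986, 11313, 10433 and 11588 CPM in METTL3. Every METTL3 library was above every library of both other groups, and chow replicate 3 lay with the other chow libraries. Against HFD+STZ the log2 fold change of Actc1 was 0.42 (SE 0.17, edgeR adjusted p = 0.515) and 0.60 against chow (SE 0.19, edgeR adjusted p = 0.0989). Over 25 alternatives the latter ran from 0.49 to 0.80 with adjusted p from 0.00217 to 0.384, and 5 called it. The exons of the actin genes are alike, and how shared reads were divided is not given, so Actc1 may hold reads of other actins.

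Troponin C, Tnnc1, the calcium sensor of the filament (chr14:31208312-31211729, plus strand), shows how far 1 library can carry a value. It was at 1106, 1294 and 8071 CPM on chow, 1638, 1704, 1807 and 1183 CPM in HFD+STZ and 1369.8, 1691, 1151 and 1899 CPM in METTL3. Its log2 fold change for HFD+STZ against chow was -1.14 (SE 0.54, edgeR adjusted p = 0.417), and 0.41 without chow replicate 3 (edgeR adjusted p = 0.629), within a range of -1.54 to 0.41 and adjusted p from 0.153 to 0.931 over 25 alternatives. Tnni3 and Tnnt2, troponins I and T, and Tpm1, tropomyosin, were also highest in chow replicate 3, at 9102, 7757 and 8577 CPM, with all other libraries at 2219 to 3941, 3089 to 5421 and 3114 to 6635 CPM. Their log2 fold changes between METTL3 and HFD+STZ were 0.07, -0.10 and 0.30, with standard errors of 0.37, 0.29 and 0.30.

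Titin and the M-band genes tie the thick filaments together at the middle of the sarcomere. Summed, they were at 3427 to 4248 CPM on chow, 3375 to 5945 CPM in HFD+STZ and 4647 to 5572 CPM in METTL3. Ttn (chr2:76703980-76982547, minus strand) was at 2749, 2226 and 2034 CPM on chow, 2112, 2642, 2938 and 2774 CPM in HFD+STZ and 3103, 3327, 3643 and 3199 CPM in METTL3. All METTL3 values lay above all others. Against HFD+STZ Ttn had a log2 fold change of 0.34 (SE 0.18, edgeR adjusted p = 0.601) and 0.51 against chow (SE 0.19, edgeR adjusted p = 0.152). With length and GC offsets in the fit the latter was -0.04, in a gene whose length lies outside that of all other members.

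Myom2, the M-protein that cross-links myosin (chr8:15057653-15133541, plus strand), had the largest log2 fold change of the 36 genes for HFD+STZ against chow. It was at 579.7, 449 and 425 CPM on chow, 541, 1149.8, 1499 and 1355 CPM in HFD+STZ and 1015, 565, 894 and 634 CPM in METTL3. HFD+STZ replicate 1 lay with the chow libraries, the other HFD+STZ libraries lay above every chow and METTL3 library. On the log2 scale the difference was 1.23 for HFD+STZ against chow (SE 0.33, edgeR adjusted p = 0.192), -0.55 for METTL3 against HFD+STZ (SE 0.30, edgeR adjusted p = 0.613) and 0.68 for METTL3 against chow (SE 0.32, edgeR adjusted p = 0.242). Of 25 alternatives 7 called the first, with values from 0.55 to 1.46 and adjusted p from 7.01e-04 to 0.931. The lowest value, 0.55 (edgeR adjusted p = 0.931), came with the code range as a term, and the 3 high HFD+STZ libraries are those of the lower code run. Myom1, the main myomesin, followed a like order with 668, 1113, 1432 and 1094 CPM in HFD+STZ against 784 to 878 CPM on chow. Myom3 stayed at 1.52 to 2.72 CPM and Obsl1, an obscurin-like M-band protein, at 52.2 to 110.2 CPM.

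The Z-disc list of 11 genes had summed levels of 6263 to 10041 CPM on chow, 6504 to 8413 CPM in HFD+STZ and 7164 to 8186 CPM in METTL3. Actn2, the alpha-actinin that cross-links actin filaments (chr13:12269426-12340760, minus strand), was at 1226, 1259 and 1778 CPM on chow, 1186, 1724, 1883 and 1504 CPM in HFD+STZ and 1451, 1208, 1462 and 1278 CPM in METTL3. These ranges overlapped, and its log2 fold changes were 0.15 (SE 0.21), -0.22 (SE 0.20) and -0.07 (SE 0.21) in the same order as for Myh7. Its last value turned positive, 0.11, without chow replicate 3. Pdlim5, a PDZ and LIM domain protein bound to alpha-actinin (chr3:142239590-142395696, minus strand), came nearest to the threshold of all members. It was at 565, 519.9 and 651 CPM on chow, 626, 929.6, 1149 and 749 CPM in HFD+STZ and 1299, 857, 987 and 1228 CPM in METTL3. Every METTL3 library was above every chow library, and HFD+STZ overlapped both groups. Its log2 fold change was 0.92 for METTL3 against chow (SE 0.24, edgeR adjusted p = 0.0568) and 0.58 for HFD+STZ against chow (SE 0.24, edgeR adjusted p = 0.372). Over 25 alternatives the first ran from 0.66 to 1.06 with adjusted p from 8.42e-04 to 0.260, and 7 called it, among them the fits without chow replicate 3 and without HFD+STZ replicate 1.

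Nexn, an actin-binding protein of the Z-disc (chr3:152236982-152266350, minus strand), was the least variable gene on chow among those given in full, at 329, 322 and 331 CPM. It was at 329, 357, 426 and 347 CPM in HFD+STZ and at 540.3, 379, 513 and 526 CPM in METTL3. METTL3 replicate 2 fell within the HFD+STZ range, and all 4 METTL3 libraries were above chow. The log2 fold change was 0.42 against HFD+STZ (SE 0.16, edgeR adjusted p = 0.483) and 0.58 against chow (SE 0.18, edgeR adjusted p = 0.0905). Synpo2l, a synaptopodin-like Z-disc protein (chr14:20658946-20668354, minus strand), differed in the other direction. It was at 118, 114 and 113 CPM on chow, 79.8, 50.4, 86.8 and 92.8 CPM in HFD+STZ and 78.4, 44.6, 100.4 and 47.6 CPM in METTL3. All 8 libraries of the HFD+STZ and METTL3 groups were below all chow libraries, chow replicate 3 included. Synpo2l had a log2 fold change of -0.57 for HFD+STZ against chow (SE 0.28, edgeR adjusted p = 0.432) and -0.76 for METTL3 against chow (SE 0.28, edgeR adjusted p = 0.141).

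Tcap, which caps the end of titin (chr11:98383811-98384953, plus strand), was at 1021, 1161 and 2918 CPM on chow, 1118, 1197, 834 and 1097 CPM in HFD+STZ and 785, 1187, 712 and 1018 CPM in METTL3. Chow replicates 1 and 2 lay within the HFD+STZ range. The log2 fold change for HFD+STZ against chow was -0.68 (SE 0.33, edgeR adjusted p = 0.427), and -0.03 without chow replicate 3. The other Z-disc genes overlapped between groups in every comparison. Csrp3, the muscle LIM protein, was at 774 to 1638 CPM, Myoz2, a calsarcin that binds calcineurin, at 385 to 824 CPM, Ldb3, the PDZ protein cypher, at 385 to 898 CPM, and Fhl2, a LIM protein, at 839.6 to 1359 CPM. Nebl, nebulette, was at 147 to 320.3 CPM and Pdlim3 at 9.64 to 26.6 CPM.

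Desmin, the intermediate filament protein that links Z-discs of neighbouring myofibrils (Des, chr1:75360329-75368579, plus strand), was at 1329.6, 1750.1 and 2789.5 CPM on chow, 1220.2, 1804, 1943 and 1717 CPM in HFD+STZ and 1296, 1166, 1226 and 1219 CPM in METTL3. The METTL3 libraries were the tightest group, 1227 ± 53.7 CPM (SD, n = 4), and all lay below all chow libraries. HFD+STZ replicate 1 fell inside their range. Des had a log2 fold change of -0.45 against HFD+STZ (SE 0.23, edgeR adjusted p = 0.602) and -0.67 against chow (SE 0.25, edgeR adjusted p = 0.140), the latter -0.34 without chow replicate 3. Filamin C, Flnc, an actin cross-linker at the Z-disc, was at 265 and 247 CPM in METTL3 replicates 1 and 3 and at 113 and 121 CPM in replicates 2 and 4 where chow and HFD+STZ libraries ran from 125 to 307 CPM. Xirp1 and Xirp2, Xin repeat proteins of the intercalated disc, were at 86.9 to 206 CPM and 364 to 684 CPM, and their groups overlapped.

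Trim54, a muscle RING-finger ubiquitin ligase (MuRF3; chr5:31116712-31137630, plus strand), was the member with the smallest p for METTL3 against HFD+STZ. It was at 114, 129.7 and 137 CPM on chow, 138, 228, 177 and 208 CPM in HFD+STZ and 113, 140.2, 127 and 144 CPM in METTL3. Every HFD+STZ library was above every chow library, by a narrow margin in replicate 1, and 3 of the 4 were above all METTL3 libraries. The log2 fold change was 0.57 for HFD+STZ against chow (SE 0.19, edgeR adjusted p = 0.308), -0.52 for METTL3 against HFD+STZ (SE 0.18, edgeR adjusted p = 0.428) and 0.05 for METTL3 against chow (SE 0.19, edgeR adjusted p = 0.916). Over the alternatives the first ran from 0.43 to 0.77 with adjusted p from 0.00432 to 0.931 (4 of 25 called it) and the second from -0.70 to -0.23 with adjusted p from 0.0314 to 0.994 (3 of 26). Smyd1, a muscle methyltransferase needed for sarcomere assembly (chr6:71213940-71322233, minus strand), was at 378, 318 and 277 CPM on chow, 293, 466, 539 and 472 CPM in HFD+STZ and 469, 362, 423 and 413 CPM in METTL3. HFD+STZ replicate 1 again lay with chow, and the log2 fold change for HFD+STZ against chow was 0.45 (SE 0.22, edgeR adjusted p = 0.426). Mylk3, the cardiac myosin light chain kinase, was at 315 and 257 CPM in METTL3 replicates 1 and 3 and at 166 and 166 CPM in replicates 2 and 4. Unc45b, a myosin chaperone, varied least, at 109 to 154 CPM, and Trim55, a relative of Trim54, was at 34.9 to 67.2 CPM.

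Chow replicate 3 differed from chow replicates 1 and 2 gene by gene, and not by a common factor. It was above both for 22 of the 36 genes, below both for 13 and between them for Pdlim3. Of 10 members with a deposited length under 3000 bases 9 were above, by most in Tnnc1 (6.73-fold over the mean of the other chow libraries), Tnni3 (3.50-fold) and Tcap (2.68-fold) and by little in Actc1 (1.07-fold) and Trim54 (1.13-fold). The longer Tnnt2 (7752 bases, 2.37-fold) and Tpm1 (6485 bases, 2.16-fold) were above as well. Myh6 was at 0.383 of that mean. Across the 36 genes Spearman's rho between this difference and length was -0.45, and across all 14862 genes -0.30. Genes are not independent replicates, so rho is a description here. Any part of the low mitochondrial share, the fewer genes detected or RNA quality in these values was not tested.

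The log2 fold changes between METTL3 and HFD+STZ were ordered along the GC content of the transcripts, which ran from 39.6% to 62.5% among the members. Of 12 members under 50% GC, 10 were above 0, against 68.2% of all genes of that class. Among the 24 members at 50% or more, 2 were above 0 (Actc1 and Tnni3), against 29.0% of all genes. Spearman's rho was -0.67 over the 36 genes and -0.50 over all genes with a GC value. For METTL3 against chow 9 of 12 and 8 of 24 members were above 0, against 62.6% and 34.3% of all genes, with a rho of -0.53 over the members and -0.35 over all. For HFD+STZ against chow rho was -0.09 over the members and -0.03 over all. The same ordering was present over all genes, so it was not particular to sarcomere genes, and its part in the members' differences was not tested. With length and GC offsets in the fit the median of the 36 genes for METTL3 against HFD+STZ was -0.01, edgeR called 0 of them (0% of genes), and 1 was at an unadjusted p under 0.05 (4.59% of all genes). With offsets and without chow replicate 3 and HFD+STZ replicate 1 the median was -0.12, edgeR again called 0 (0% of genes), and 9 were at an unadjusted p under 0.05 (15.5% of all genes).

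**Figure D4:**
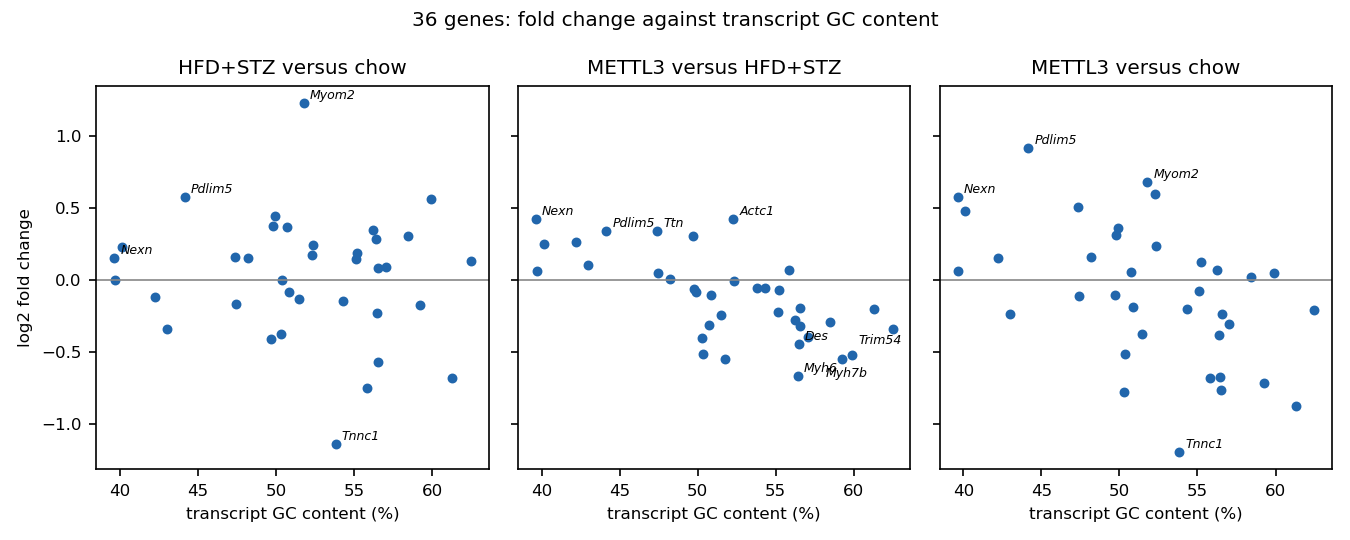
Log2 fold change (vertical axis) against GC content of the transcript in percent (horizontal axis) for the 36 members (points, some named) in each comparison (panels). For METTL3 versus HFD+STZ 10 of 12 members under 50% GC lie above 0 and 2 of 24 members at 50% or more do.

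Shares between isoform genes, which cancel the scaling of a library, were examined for the shift of contractile isoforms known from stressed hearts. The Myh7 share of Myh6 and Myh7 counts was 2.91, 2.26 and 11.3% on chow, 3.80, 2.80, 3.42 and 6.96% in HFD+STZ and 7.71, 2.57, 7.62 and 3.58% in METTL3. Chow replicate 3 was the highest and chow replicate 2 the lowest of all libraries, with 95% Wilson intervals of 11.1 to 11.5% and 2.20 to 2.31%. The means were 5.48 ± 5.03% (SD, n = 3), 4.25 ± 1.86% (SD, n = 4) and 5.37 ± 2.68% (SD, n = 4). The share of skeletal actin, Acta1, in Acta1 and Actc1 counts was 6.18, 9.40 and 18.3% on chow, 7.03, 3.26, 6.70 and 6.43% in HFD+STZ and 8.57, 3.42, 6.09 and 4.96% in METTL3. Chow replicate 3 was again highest, and the libraries of both other groups lay between 3.26 and 8.57%. Intervals cover counting error only.

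Tnni1, the slow skeletal troponin I of the fetal heart, had 0 to 23 counts per library, and the libraries with 0 counts allow a share of up to 0.00186 to 0.00793%. Myl7, the atrial light chain, made up 0 to 1.02% of Myl7 and Myl2 counts, with the highest values in HFD+STZ replicate 1 (1.02%), METTL3 replicate 3 (0.825%) and chow replicate 2 (0.607%). Another atrial marker, Sln, ran from 0 to 11.3 CPM, and whether the samples held different amounts of atrium was not tested. The 12 two-sided exact permutation tests of these 4 shares in 3 comparisons gave Benjamini-Hochberg adjusted p from 0.514 to 0.971. The smallest unadjusted p the design allows is 0.0286. A test alone at that floor could not pass the threshold after adjustment over the 12 tests. The lack of a call therefore does not decide whether any single share differed. Leaving out 1 library at a time moved the Myh7 share difference between METTL3 and chow from -1.72 to 2.79 percentage points.

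**Figure D5:**
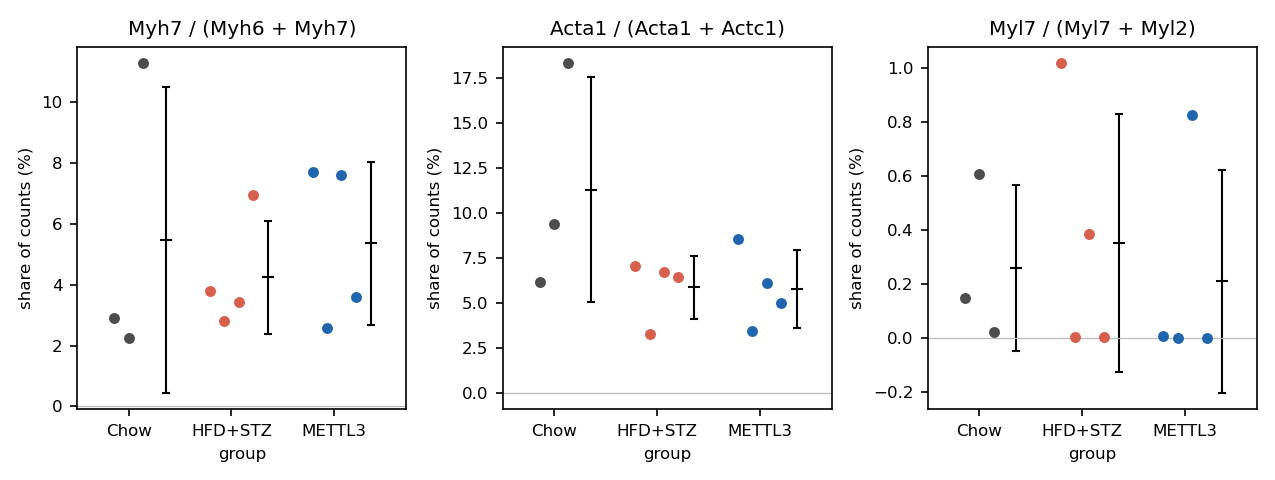
Percent of counts taken by Myh7 (of Myh6 and Myh7), Acta1 (of Acta1 and Actc1) and Myl7 (of Myl7 and Myl2) in each library by group, with the mean ± SD. Chow replicate 3 is highest for the first pair of panels, and the SD bars of Myl7 run below 0.

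Other sarcomere genes outside the 36 were read from a list of 62, of which 49 were tested. In HFD+STZ against chow 1 of them passed edgeR's test, where 0.168% of all genes did. This was Lmod3, leiomodin 3, which nucleates actin filaments (chr6:97238534-97252759, minus strand). It was at 90.8, 92.4 and 85.1 CPM on chow, 47.5, 29.2, 36.9 and 42.2 CPM in HFD+STZ and 46.6, 37.7, 35.2 and 50.4 CPM in METTL3. All 8 libraries of both other groups were below all chow libraries. Lmod3 fell by 1.20 on the log2 scale in HFD+STZ against chow (SE 0.19, edgeR adjusted p = 0.0309; 1.43e-05 to 0.592 over 25 alternatives, 13 of which called it) and by 1.07 in METTL3 against chow (edgeR adjusted p = 0.0202; 7.15e-05 to 0.174, 21 of 25). In METTL3 against chow Lrrc39, myomasp of the M-band, rose by 0.93 (SE 0.19, edgeR adjusted p = 0.0299; 3.33e-04 to 0.178, 16 of 25 called it). Its levels were 64.8 to 103 CPM on chow, 122 to 165 CPM in HFD+STZ and 157 to 184 CPM in METTL3. Lmod3 and Lrrc39 were thus 2 of 49 in METTL3 against chow, where 3.2% of all genes passed. No other gene of the list passed in any comparison. The smallest p among the rest belonged to Acta2 and Tpm2 for HFD+STZ against chow (-1.54 and -1.49, edgeR adjusted p = 0.239 and 0.241), which are also smooth muscle genes, to Klhl31 (0.64), Tpm3 (-1.11) and Cacybp (0.53) for METTL3 against HFD+STZ, and to Sorbs2 (0.88, edgeR adjusted p = 0.0586) for METTL3 against chow. The median over the 49 genes was 0.04, -0.11 and -0.15 in the 3 comparisons.

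Among 19 tested cardiac transcription factor genes 0 passed edgeR's test in any comparison, with 3, 4 and 3 at an unadjusted p under 0.05 (12.1%, 9.06% and 21.7% of all genes). Gata6 had log2 fold changes of 0.60 for HFD+STZ against chow and 0.71 for METTL3 against chow (edgeR adjusted p = 0.326 and 0.0895), and Tbx5 0.95 in the first (edgeR adjusted p = 0.364). Mef2a, of the family that binds the MEF2 box, was at 139 to 176 CPM on chow, 145 to 165 CPM in HFD+STZ and 196 to 225 CPM in METTL3. Its groups did not overlap between METTL3 and HFD+STZ, where the log2 fold change was 0.41 (SE 0.14, edgeR adjusted p = 0.439). That was 1 of the 19 factors, against 9.57% of all genes without overlap there (5.43% higher). Of 30 other cardiomyocyte genes, 1 passed, in METTL3 against chow, where 3.2% of all genes did. This was Corin, the natriuretic peptide convertase, which rose by 1.10 (edgeR adjusted p = 0.0490; 0.00109 to 0.304 over 25 alternatives, 9 of which called it). Its levels were 83.1 to 126 CPM on chow, 110, 221, 284 and 208 CPM in HFD+STZ and 201 to 248 CPM in METTL3. For METTL3 against HFD+STZ its log2 fold change ran from -0.09 to 0.32 over 26 alternatives, and 0 called it. For HFD+STZ against chow 6 of 25 alternatives called it.

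Markers of other cells were read because a heart holds many cell types, and in such samples fewer cells of a type and less RNA per cell cannot be told apart. The 11 macrophage markers summed to 280.2 to 542 CPM on chow, 201 to 415 CPM in HFD+STZ and 134 to 226 CPM in METTL3. In METTL3 against chow 4 of them (C1qa, C1qc, Csf1r and Fcgr1) fell, with log2 fold changes from -2.57 to -1.33 and edgeR adjusted p from 0.0101 to 0.0472 (3.2% of all genes passed). Of the 11 markers 10 were below 0 in that comparison and 1 was above it, at 0.66. At an unadjusted edgeR p under 0.05, 7 were lower and 1 was higher (11.1% and 10.6% of all genes). The 10 lymphocyte markers summed to 14.4 to 20.8 CPM on chow, 5.65 to 9.21 CPM in HFD+STZ and 4.03 to 9.09 CPM in METTL3. All sums of both other groups thus lay below all chow sums. Of the 5 tested, 4 were below 0 in METTL3 against chow and 1 was above it. Among them Ighm, an immunoglobulin heavy chain gene, fell by 1.61 (edgeR adjusted p = 0.0317, where 3.2% of all genes passed). The 7 Schwann cell markers summed to 15.7 to 24.1 CPM on chow, 15.1 to 22.8 CPM in HFD+STZ and 27.3 to 37.6 CPM in METTL3. In METTL3 against chow Cdh19 rose by 1.29 (edgeR adjusted p = 0.0279, where 3.2% of all genes passed). Of the 6 markers tested there, 4 were above 0 and 2 below it, the lowest at -0.89. The alternatives called C1qa in 22 of 25 fits, C1qc in 16 of 25, Csf1r in 17 of 25, Fcgr1 in 9 of 24, and Ighm and Cdh19 in 16 of 25 each. The part of these markers in the members' differences was not tested. Skeletal heavy chains Myh1, Myh2 and Myh4 were at or near 0 in every library, with at most 0.259 CPM. The muscle light chain Mylpf was at up to 2.53 CPM on chow and 0.167 CPM in METTL3. It passed the test as lower in METTL3 against chow, where 3.2% of all genes passed (8 of 20 alternatives called it). With the code range as a term or with a replicate block edgeR called none of these 7 marker genes, at adjusted p from 0.0925 to 0.283 and from 0.0514 to 0.216. Those fits called 0.00673% and 0.0336% of all genes in METTL3 against chow, so the loss of calls was not particular to the markers. Endothelial, fibroblast, smooth muscle, neutrophil, adipocyte and erythroid lists had 0 genes past edgeR's test in every comparison. Smooth muscle and pericyte markers summed to 1230 to 1368 CPM on chow, 961 to 1510 CPM in HFD+STZ and 1477 to 1907 CPM in METTL3. Neutrophil markers summed to 38.4 and 41.1 CPM in HFD+STZ replicates 2 and 3 and to 2.19 to 10.4 CPM in all other libraries. The sums of the other lists named here overlapped between groups.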

How the data were processed

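RNA of mouse hearts was sequenced in 11 libraries after RiboZero depletion and NEB library preparation, per the labels' protocols. The table deposited by the authors holds counts, in whole numbers, for each gene and library. FastQC, Salmon and mm10 are named in the submitters' processing notes, with no versions. The division of shared reads, the annotation release and the strand setting were not given in the sources used here, so reads of close paralogs (Myh6 and Myh7, the actins) and of antisense partners may be mixed. Gene coordinates are those deposited. Groups come from the sample titles. Replicate numbers name samples and were not found to pair them.

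Counts were tested in R 4.3.3 with edgeR 4.0.16: TMM scaling, filterByExpr (minimum count 10, minimum total 15), 1 model of group means for all 11 libraries, and quasi-likelihood tests whose p was adjusted over 14862 genes by Benjamini-Hochberg, called at 0.05. A standard error is the log2 fold change divided by the root of F. CPM were computed with TMM-scaled library sizes (prior count 2 for log2 values). Depth was 13900531 to 16952639 counts, and intervals of shares cover counting error only. Alternatives were DESeq2 1.42.0, limma 3.58.1 (voom with quality weights), other scalings and filters, only the groups compared, a replicate block, the code range, and leaving out libraries. Offsets for length and GC content (loess span 0.5, GC known for 99.9% of genes) and voom without chow replicate 3 were added after seeing the data.

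The 36 members and all lists were chosen with earlier results of these data known. Values in every library are given for the 6 smallest p of each comparison and for Myh6, Myh7, Actc1, Ttn, Des and Actn2, and other members by range. Other lists are named by genes past the threshold or up to 3 of smallest p, and the METTL3 replicates of Flnc and Mylk3, and Synpo2l in HFD+STZ against chow, were singled out after their values were seen. The symbols Murc, Mrtfa and Mrtfb were not matched. The result of 1 other marker gene is not reported here.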

Additional observations from a re-analysis of the deposited data

Results flagged for a closer look

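A library was set apart where its gap to the nearest other library of its group, divided by the range of the group, exceeded 0.829, in 80 groups of 4 libraries checked. This gave 5 groups, where chance alone flags about 1 in 20. Nexn was at 379 CPM in METTL3 replicate 2, below the 513 to 540.3 CPM of the other METTL3 libraries. Pdlim3 was at 9.64 CPM in METTL3 replicate 1 against 19.0 to 20.7 CPM. Fhl2 was at 1359 CPM in HFD+STZ replicate 2 against 1071 to 1113 CPM. The Acta1 share of Acta1 and Actc1 counts was 3.26% in HFD+STZ replicate 2 against 6.43 to 7.03%. The Myl7 share of Myl7 and Myl2 counts was 0.825% in METTL3 replicate 3 against 0 to 0.00559%.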

How the results depend on the processing

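Of 784 alternative values of named members, 707 kept their direction and their side of the threshold, 45 kept their direction and passed it, and 32 changed sign. For Lmod3, Lrrc39 and Corin 59 of 100 kept the call and 41 lost it. The counts of members called (0, 0 and 0 of 36 for HFD+STZ against chow, METTL3 against HFD+STZ and METTL3 against chow) became 1, 0 and 3 with DESeq2, 6, 2 and 11 with voom and quality weights, 1, 0 and 0 with no filter (0.698%, 0% and 2.74% of all genes), 2, 4 and 5 without chow replicate 3 and HFD+STZ replicate 1, 5, 0 and 4 with offsets and without both (4.78%, 0% and 6.34%), and 4, 2 and 6 with voom without chow replicate 3 (6.77%, 2.14% and 12.7%). Leaving out 1 library gave 0 to 1, 0 and 0 to 2 members called: 1 without HFD+STZ replicate 1 in HFD+STZ against chow (1.47% of all genes) and in METTL3 against chow (3.46%), and 2 in the latter without chow replicate 3 (4.92%). The members' median, 0.11 for HFD+STZ against chow, was -0.12 with the code range, -0.049 with offsets and 0.29 with offsets without both libraries. For METTL3 against chow, -0.09, it was 0.077 with voom, -0.28 with the code range, 0.092 without both libraries, 0.090 without chow replicate 3, 0.24 with offsets without both, and 0.077 with voom without chow replicate 3. Without both libraries the first was 0.25. Over leave-one-out fits these medians ran from 0.035 to 0.22 and from -0.17 to 0.090, and that of METTL3 against HFD+STZ from -0.18 to -0.058. Genes called over all genes ranged from 0 to 1954 (25 as reported), 0 to 403 (0) and 1 to 3078 (475). A replicate block called 2, 0 and 5 genes and 0 members, and turned the log2 fold change of Myh7 in METTL3 against chow to -0.054. Same-numbered libraries correlated at -0.23 to 0.16, 3 of 10 best with their own number, so numbers were not taken to pair them. DESeq2 gave no adjusted p for Tnnc1, or for Myom3 in METTL3 against HFD+STZ.

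Signs also changed as follows, and the cause was not tested. In HFD+STZ against chow Tnnc1 was 0.26 with voom, 0.38 without both libraries, 0.41 without chow replicate 3, 0.36 with offsets without both and 0.38 with voom without chow replicate 3, and Des was 0.072, 0.24, 0.12, 0.32 and 0.21 in the same order. Myh6 was -0.041 without chow replicate 3. Myh7 was -0.36 with the code range, -0.074 without HFD+STZ replicate 4 and -0.068 with offsets, Ttn -0.017 with the code range and -0.24 with offsets, and Actn2 -0.095 with the code range. Over leave-one-out fits Tnnc1 ran from -1.54 to 0.41, Myh6 from -0.041 to 0.52, Myh7 from -0.074 to 0.71 (0.89 without both libraries) and Des from -0.43 to 0.12. In METTL3 against HFD+STZ Myh7 was 0.14 without HFD+STZ replicate 4 and ran down to -0.53 over leave-one-out fits. In METTL3 against chow Myh7 was -0.020 with upper-quartile scaling, -0.62 with the code range, -0.15 without chow replicate 2, -0.17 and -0.18 without METTL3 replicates 1 and 3, and -0.13 with offsets, and ran up to 0.42 over leave-one-out fits. Ttn was -0.044 with offsets, and Actn2 was 0.13 with voom, 0.11 without both libraries, 0.11 without chow replicate 3, 0.020 with offsets, 0.40 with offsets without both and 0.13 with voom without chow replicate 3. Differences in shares, in percentage points, moved as follows when 1 library was left out. With 2 against 4 or 3 against 3 libraries the exact permutation test cannot go below 0.0667 or 0.1, so it could make no call there. With all libraries, a test alone at its floor could make no call either, because of the adjustment. For Myh7 the share differences ran from -2.85 to 1.66 in HFD+STZ against chow and from -1.72 to 2.79 in METTL3 against chow. For Acta1 they ran from -1.03 to 0.68 in METTL3 against HFD+STZ. For Myl7 they ran from -0.13 to 0.27, from -0.35 to 0.079 and from -0.26 to 0.12 in the 3 comparisons. Without both libraries Myh7 shares differed by 1.81 and 2.79, the Acta1 share by 0.30 and the Myl7 share by -0.25 and 0.079.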
